A study of Mus musculus with 8 samples.

Results

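Genes near which common variants alter the risk of late-onset Alzheimer disease, together with App and Mapt, were followed in mouse cortex after chronic cerebral hypoperfusion. The set held 8 of 21911 protein-coding genes: Bin1, Picalm, Sorl1, Cd2ap, Abca7, Rin3, App and Mapt. Each locus was the gene body of the GENCODE annotation with 3 kb on each side, and every ATAC-seq peak that overlapped it was taken. Of 1028949 peaks in 8 libraries, 801 overlapped these loci. Peaks of all libraries were merged where they overlapped by at least 1 bp, which gave 157 regions in the loci among 197916 in the genome.

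ATAC-seq cuts open chromatin with the Tn5 transposase, so that a peak marks DNA that was accessible in the nuclei. The BCAS group was 4 libraries from male C57BL/6 mice with stenosis of both common carotid arteries, made at 11 weeks of age with microcoils of 0.16 mm inner diameter on the right side and 0.18 mm on the left, and sampled 3 weeks after surgery. The sham group was 4 libraries from mice of the same strain, sex and age that had the sham operation. The labels give the tissue of all 8 as right cerebral cortex, while the study's quality table describes cortex of the whole brain, so the side is uncertain. In all 8 mice were used for the 8 libraries.

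Several of the genes meet in endocytosis. Clathrin-coated vesicles carry membrane proteins inwards, RAB5 marks the early endosomes they fuse with, and retromer and sorting receptors return cargo from there to the cell surface or the Golgi. The amyloid precursor protein travels this route and is cut by secretases along it, and tau binds the microtubules of axons. Bin1, Picalm, Cd2ap and Rin3 act in uptake and early endosomes, Sorl1 in sorting, and Abca7 in lipid transport.

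The lists held 119565 to 160720 peaks in BCAS and 107391 to 144988 in sham on 21 chromosomes, covering 48.9 to 66.3 Mb and 44.5 to 60.8 Mb. Reads are not counted in them, so depth was not used here, although the paper gives a mean number of reads per sample. Covered length in bp served as the measure, scaled to the mean library total of 52.85 Mb and called scaled bp below. Libraries BCAS 1 and sham 1 to 3 had the higher read GC content in the study's quality table, and BCAS 2 to 4 and sham 4 the lower, so that read GC content and group are partly confounded. All 18 microglia markers, 9 of 10 markers of excitatory and 8 of 10 of inhibitory neurons, and all 10 each of astrocytes and oligodendrocytes had enough covered length to be tested.

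Of the 8 loci, Rin3 alone passed the test of covered length, and it rose. The length of its introns rose as well, and its promoter did not pass the test. Abca7 had more covered length in every BCAS library than in any sham library but missed the threshold, and the other 6 loci overlapped between the groups. Among all 17012 tested loci, 3.15% rose and 0.376% fell, and in 6.04% every BCAS library lay above every sham library.

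**Figure D1:**
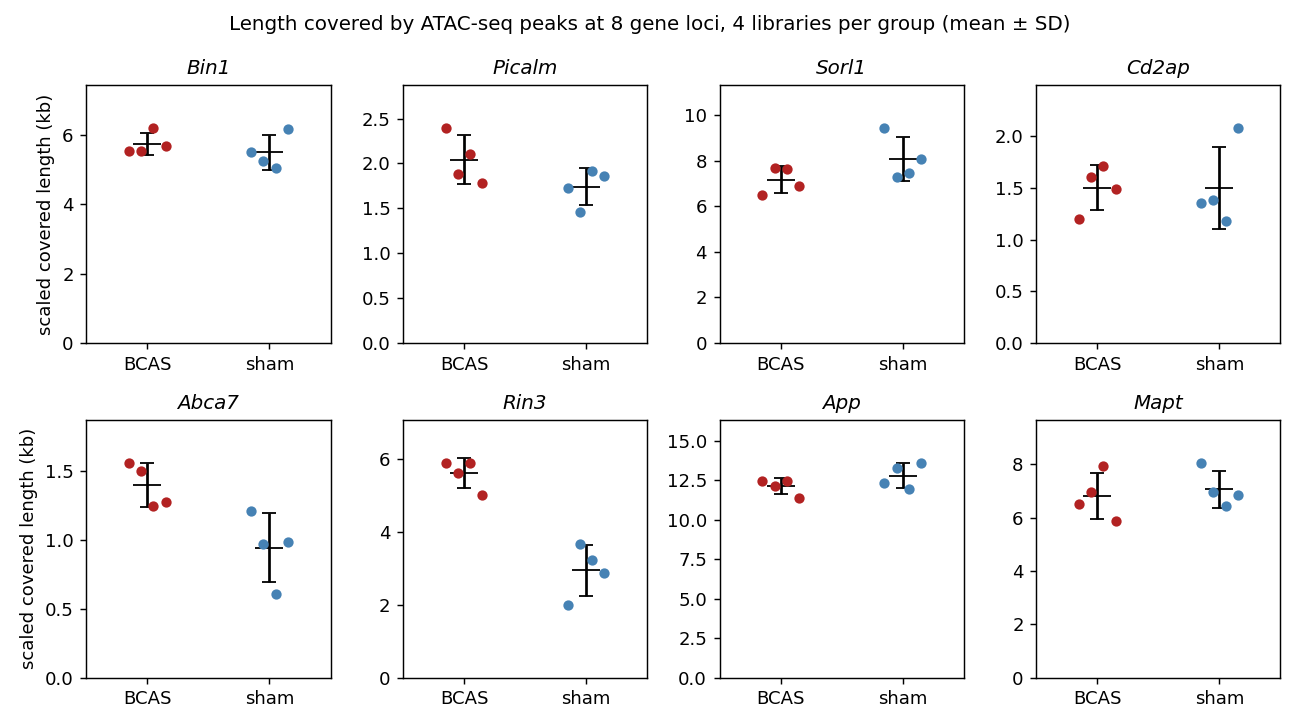
Scaled covered length (vertical axis, kb, from 0) of the 8 loci in 4 BCAS and 4 sham libraries. Points are libraries and bars give the mean ± SD. At Rin3 the 4 BCAS libraries lie between 5021 and 5903 scaled bp, above the 4 sham libraries at 2008 to 3683, and Abca7 also separates, whereas the groups overlap at the other 6 loci.

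Rin3 encodes an exchange factor that loads RAB5 with GTP on early endosomes and that binds BIN1 and CD2AP. The gene lies on chr12:102283048-102390855 (GRCm38/mm10, plus strand, 107.8 kb). Its peaks covered 7398, 5521, 5671 and 4648 bp in the BCAS libraries 1 to 4, against 1703, 3826, 3704 and 2413 bp in the sham libraries 1 to 4. Every BCAS library was thus above every sham library before any scaling. The locus held 15 to 23 peaks in BCAS and 6 to 11 in sham.

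After scaling, Rin3 had 5614 ± 415 bp in BCAS and 2944 ± 708 bp in sham (SD, n = 4 each). The log2 fold change was 0.91 (SE 0.14, 95% interval 0.62 to 1.21, limma with Benjamini-Hochberg adjustment over all tested loci, adjusted p = 0.00139). It lay between 0.76 and 1.03 when single libraries were left out, with adjusted p-values of at most 0.0148. Without scaling it was 0.996 and missed the threshold (adjusted p = 0.106). Within the class of higher read GC content BCAS 1 had 5901 scaled bp, against 2008 to 3683 in sham 1 to 3, and within the lower class BCAS 2 to 4 had 5021 to 5903, against 2864 in sham 4. With the class as a covariate the log2 fold change was 0.94 (adjusted p = 0.0219).

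Most of the additional length at Rin3 was intronic. Introns outside 3 kb of a start site held 4604 ± 427 scaled bp in BCAS and 2118 ± 695 in sham, a log2 fold change of 1.11 (SE 0.21, 95% interval 0.65 to 1.56, adjusted p = 0.0194), where 3.04% of 9071 genes rose. The intronic call was lost when read GC class entered as a covariate (1.12, adjusted p = 0.0709), without scaling (1.18, adjusted p = 0.126) and without BCAS 1, 2 or 3 (1.07 to 1.10, adjusted p = 0.0540 to 0.0661). The promoter window, within 3 kb of a start site, held 635 ± 62.2 scaled bp in BCAS and 489 ± 52.0 in sham (log2 fold change 0.28, 95% interval -0.01 to 0.57, adjusted p = 0.656), where 1.4% of 15281 genes rose. Introns made up 81.9% of the covered length of the locus in BCAS and 70.5% in sham.

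**Figure D2:**
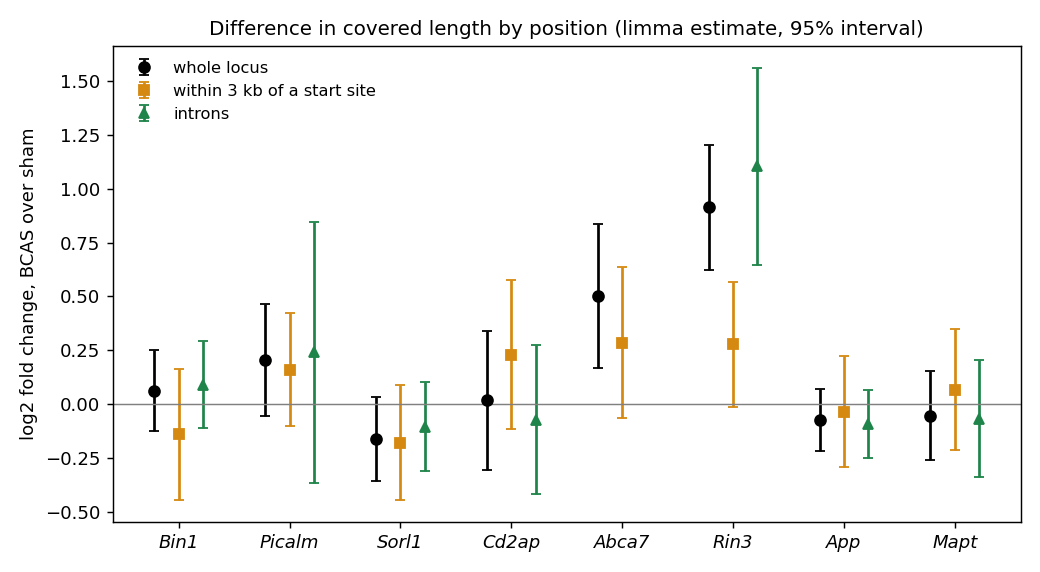
Log2 fold change of scaled covered length, BCAS over sham (vertical axis), for the whole locus, the part within 3 kb of a start site and the introns of each gene. Points are limma estimates and bars 95% intervals; at Rin3 the locus (0.91) and the introns (1.11) lie above 0 and the promoter interval reaches -0.01, and the introns of Abca7 are not drawn because they held too little covered length to be tested.

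Of the 27 regions of Rin3, 24 were intronic, 2 lay at promoters and 1 in a UTR exon. A peak was present in more BCAS than sham libraries in 18 of them (66.7%), in fewer in 4 and in as many in 5. Among all regions of the genome 30.4% had more BCAS than sham libraries and 23.2% fewer. Of the 27 Rin3 regions, 7 had a peak in 1 library only. Presence was not scaled to the length of the lists, of which BCAS 1 had the longest (160720 peaks). Regions present in all 4 BCAS libraries and in no sham library are called BCAS-only here. Rin3 held 3 of the 5 BCAS-only regions of the 8 loci, and 1.62% of all regions were BCAS-only. Sham-only regions, the opposite case, made up 0.0945% of all regions and numbered 0 in the 8 loci.

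The first BCAS-only region of Rin3 lay in intron 1, 9.7 kb from the start site of the longest transcript, at chr12:102292573-102292843. Peaks covered 238, 210, 247 and 212 bp of it in BCAS 1 to 4 and 0 bp in each sham library. The second, also in intron 1 at 14.2 kb (chr12:102297027-102297418), had 390, 319, 205 and 258 bp in BCAS and 0 bp in each sham library. The third lay in intron 5 at 85.2 kb (chr12:102368090-102368395), with 262, 277, 276 and 261 bp in BCAS and 0 bp in each sham library. All were short, with 205 to 390 bp covered in a library. Their -log10 q, the authors' significance of a peak over background, was 4.93 to 27.1 over the BCAS libraries and regions. The Rin3 promoter had 14.0 to 29.6 in BCAS and 6.00 to 18.7 in sham. No sham peak in the BCAS-only regions means that none passed the authors' threshold, not that the DNA was closed.

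Further Rin3 regions leaned the same way without being BCAS-only. The region at 19.8 kb in intron 1 (chr12:102302333-102303268) had 669, 651, 634 and 637 bp in BCAS, against 0, 0, 509 and 0 bp in sham 1 to 4 (adjusted p = 0.0684). The regions at 57.5 kb and 102.0 kb were also present in 4 BCAS libraries and 1 sham library, sham 4 at 57.5 kb and sham 2 at 102.0 kb. They were further from the threshold in limma (adjusted p = 0.215 and 0.272). The regions at 3.9, 26.9, 31.5 and 59.3 kb leaned the other way, with a peak in fewer BCAS than sham libraries. Other regions did not separate the groups. The region at 25.4 kb, the one at 82.2 kb and the one at 104.4 kb were present in all 8 libraries, as were the promoter at the start site and the UTR exon at 107.2 kb.

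**Figure D3:**
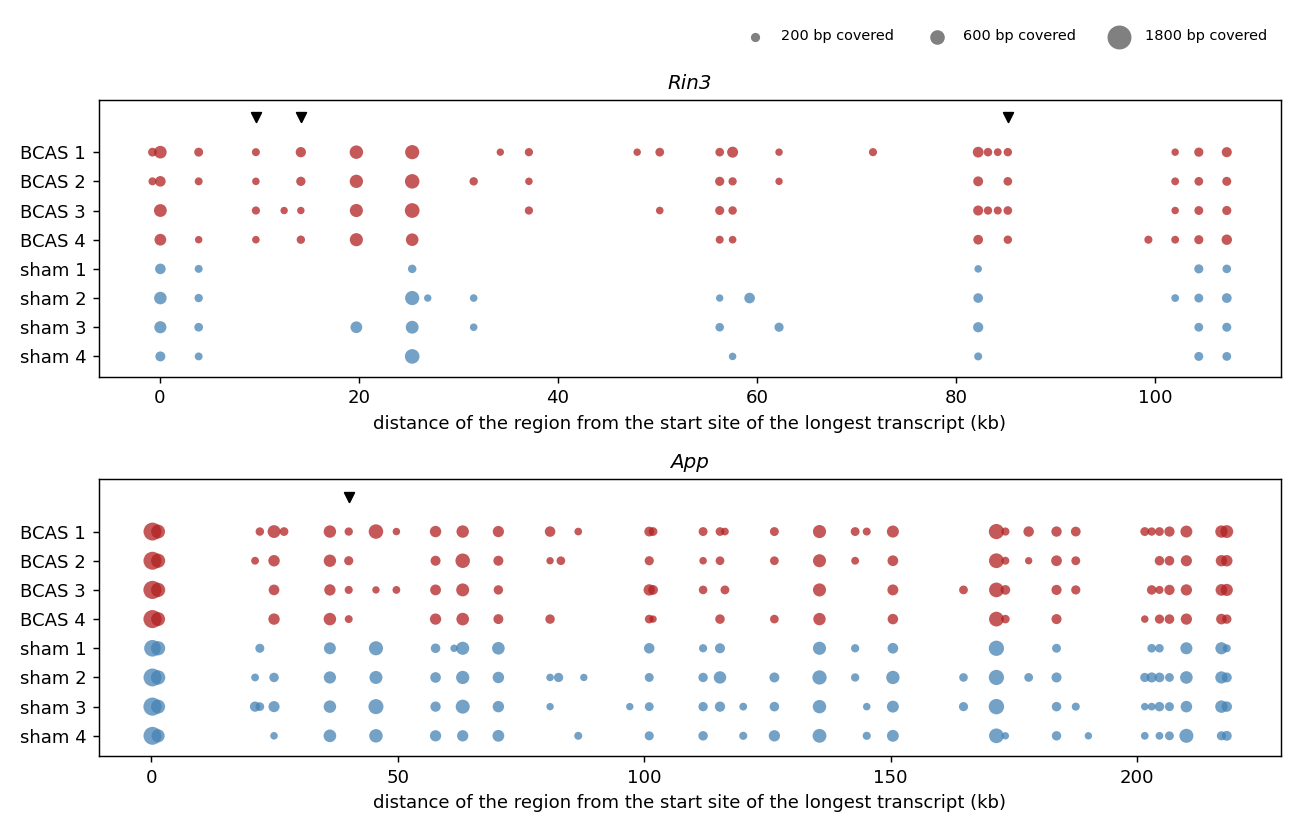
Peaks along Rin3 (upper panel) and App (lower panel) by distance from the start site of the longest transcript (horizontal axis, kb), with a row for each of the 4 BCAS and 4 sham libraries. The area of a point gives the covered bp of a region and black triangles mark BCAS-only regions, of which Rin3 has 3 and App has 1. At App 15 of 45 regions have a point in all 8 rows.

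The sequences around the strongest summit of the 5 BCAS-only regions are shown as the regions whose presence separated the groups fully, although most regions with more BCAS than sham libraries were not of this kind. Each is 201 bases of the plus strand of GRCm38/mm10. Capitals mark the words GAGGAAG (PU.1 and other ETS factors), the composite of an ETS and an IRF site (GGAA and GAAA with 2 bases between), TGANTCA (AP-1) and TGTGGT (RUNX) on either strand.
Rin3 9.7 kb, chr12:102292608-102292808: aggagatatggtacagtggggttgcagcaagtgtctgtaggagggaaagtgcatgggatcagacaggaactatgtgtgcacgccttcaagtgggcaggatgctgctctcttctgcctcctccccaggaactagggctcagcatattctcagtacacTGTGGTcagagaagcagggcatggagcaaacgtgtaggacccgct
Rin3 14.2 kb, chr12:102297151-102297351: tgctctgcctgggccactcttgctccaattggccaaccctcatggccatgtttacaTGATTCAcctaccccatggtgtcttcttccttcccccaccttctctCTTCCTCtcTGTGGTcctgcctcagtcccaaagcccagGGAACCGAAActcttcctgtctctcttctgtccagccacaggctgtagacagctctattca
Rin3 85.2 kb, chr12:102368143-102368343: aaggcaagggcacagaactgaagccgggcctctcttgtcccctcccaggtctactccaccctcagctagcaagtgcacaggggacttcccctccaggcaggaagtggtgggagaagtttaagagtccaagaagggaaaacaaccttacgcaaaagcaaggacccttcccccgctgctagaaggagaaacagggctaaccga
App 40.0 kb, chr16:85133608-85133808: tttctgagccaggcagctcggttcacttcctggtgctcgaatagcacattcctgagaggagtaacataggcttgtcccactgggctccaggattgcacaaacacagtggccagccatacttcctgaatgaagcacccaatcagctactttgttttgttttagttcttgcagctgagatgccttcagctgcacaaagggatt
Abca7 downstream flank, inside Arhgap45, chr10:80017469-80017669: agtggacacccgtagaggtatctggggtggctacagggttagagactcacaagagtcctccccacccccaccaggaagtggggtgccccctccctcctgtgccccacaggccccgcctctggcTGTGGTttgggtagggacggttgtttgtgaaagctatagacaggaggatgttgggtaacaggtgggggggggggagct

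The region of Rin3 at 14.2 kb held all of these words, 1 of each. The region at 9.7 kb and the one in the flank of Abca7 held the RUNX word, and the regions at 85.2 kb of Rin3 and at 40.0 kb of App held none of the 4. A matched word is a description and not a shown binding site, and a missing word does not show that a site is absent. The ETS word and the composite share the letters GGAA, so that a single site can count for both. The same letters, on either strand, also occur unmarked in the sequences without the ETS word.

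Over all regions of the loci the words were counted beside their share of the regions in the genome. Of 157 regions, 19 (12.1%) held the ETS word at most 100 bp from the summit, against 10.7% of all regions, and AP-1 in 19 (12.1%), against 15.02%. The RUNX word was found in 27 (17.2%), against 14.3%, and the composite in 8 (5.10%), against 2.67%. Of the 27 Rin3 regions, 5 held the ETS word, 3 the composite, 4 the AP-1 word and 9 the RUNX word. The words of MEF2 (CTA and TAG with 4 bases between), NEUROD (CAGATG), SP factors (GGGCGG) and the E-box of TFEB and USF (CACGTG) were found in 4, 29, 17 and 7 of the 157 regions, against 4.23%, 21.99%, 10.3% and 3.37% of all regions. In the same order, they were found in 0, 7, 0 and 2 of the 27 Rin3 regions.

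Some microglial loci rose as well. Of 18 microglia markers, 6 rose and 0 fell, where 3.15% of all tested loci rose and 0.376% fell. Of the 6, Itgam and Gpr34 had a sham mean under 200 bp and reached the minimum length only through BCAS. A positive log2 fold change was found for 17 of the 18, and the median was 0.51, against 0.00 over all tested loci. Their summed length was 31.7 to 35.3 scaled kb in BCAS and 23.1 to 30.2 in sham, and none was at 0 in every library. Itgam, an integrin subunit of myeloid cells, had 1092 ± 394 scaled bp in BCAS and 54.8 ± 110 in sham, and the receptor Gpr34 had 580 ± 105 in BCAS and 104 ± 121 in sham. The adaptor Tyrobp had 1383 ± 333 in BCAS and 549.6 ± 314 in sham (log2 fold change 1.14, adjusted p = 0.00948). The summed length of 10 endothelial markers was 16.9 to 19.9 kb in BCAS and 12.3 to 16.3 kb in sham, with 0 called by limma. Among the tested markers of the other 8 lists, of neurons, other glia, mural cells, border macrophages and lymphocytes, limma called 0 as well. For some of these few markers could be tested, 6 of 9 for mural cells and fibroblasts, 4 of 9 for border macrophages and monocytes and 2 of 8 for lymphocytes. In bulk tissue more cells of a type and more accessible DNA per cell cannot be told apart, and the part of microglia in the Rin3 result was not tested.

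The loci whose lengths followed Rin3 most closely over the 8 libraries were Gpr137b, which encodes a lysosomal membrane protein (Pearson r = 0.984), Arhgap25, a Rac GTPase-activating protein of blood cells (r = 0.983), and Ppp1r18, a phosphatase-binding protein (r = 0.981). These values describe 8 libraries in 2 groups and come from a search over all tested loci, so that the shared group difference alone raises them. Gpr137b had 2430 ± 152 scaled bp in BCAS and 1784 ± 241 in sham and missed the threshold (adjusted p = 0.0594). Arhgap25 had 5555 ± 226 scaled bp in BCAS and 4092 ± 696 in sham (adjusted p = 0.0373), and Ppp1r18 had 1216 ± 81.2 in BCAS and 583 ± 266 in sham (adjusted p = 0.0175).

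Abca7, a transporter of lipids across the membrane, lies on chr10:79996494-80015572 (plus strand, 19.1 kb). It had 1953, 1471, 1195 and 1177 bp in BCAS 1 to 4, against 1025, 1008, 699 and 830 bp in sham 1 to 4. After scaling the values were 1393 ± 159 bp in BCAS and 943 ± 249 bp in sham (log2 fold change 0.50, SE 0.16, 95% interval 0.17 to 0.83, adjusted p = 0.0960). The groups did not overlap, but the locus missed the threshold. It passed without sham 1 (0.61, adjusted p = 0.0479) and with 10 kb on each side (0.64, adjusted p = 0.00769). The wider window takes in more of the neighbouring genes, among them Arhgap45, which rose itself, so that this pass is not one of Abca7 alone.

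Much of this difference lay next to Abca7. The BCAS-only region of the locus, at chr10:80017413-80017698, had 264, 258, 209 and 265 bp in BCAS and 0 bp in each sham library, and it lies inside Arhgap45, a neighbouring gene whose start falls in the flank. Arhgap45 itself rose (2068 ± 239 scaled bp in BCAS and 1122 ± 351 in sham, log2 fold change 0.81, SE 0.16, adjusted p = 0.00977). The other neighbour, Cnn2, had a log2 fold change of 0.10 (adjusted p = 0.912). With the bases of other coding genes left out, an alternative chosen after seeing the data, Abca7 had a log2 fold change of 0.22 (adjusted p = 0.614), and with the gene body alone 0.41 (adjusted p = 0.522). Its promoter region at chr10:79996217-79996708 was present in all 8 libraries with 392 to 407 bp in BCAS and 385 to 467 bp in sham. The promoter window held 723 ± 109 scaled bp in BCAS and 573 ± 200 in sham (adjusted p = 0.802), and intronic peaks were found in BCAS 1 only.

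App, the precursor of amyloid beta, had the longest locus (chr16:84949685-85173766, minus strand, 224.1 kb) and the most regions, 45, of which 43 were intronic. Its covered length was 12117 ± 501 scaled bp in BCAS and 12771 ± 795 in sham, with 24 to 37 peaks in BCAS and 22 to 31 in sham. The log2 fold change was -0.07 (95% interval -0.22 to 0.07, adjusted p = 0.727), so that a change of the whole locus beyond 0.22 on this scale lies outside the interval. Promoter regions at 0.2 kb and 1.4 kb from the start site were present in all 8 libraries, and the first of them covered 1183 to 1218 bp in BCAS and 1021 to 1212 bp in sham. Of the 45 App regions, 1 was BCAS-only, where 1.62% of all regions were.

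In intron 1 of App, 2 neighbouring regions are described as examples, and they are no result about the locus. The region at 40.0 kb (chr16:85133565-85133872) was BCAS-only, with 256, 308, 241 and 232 bp in BCAS and 0 bp in each sham library. The region at 45.6 kb (chr16:85127694-85128691) had 774, 0, 200 and 0 bp in BCAS 1 to 4, against 734, 625, 833 and 669 bp in sham 1 to 4, and did not pass the test (log2 fold change -1.95, SE 0.58, adjusted p = 0.179). It was present in every sham library but only BCAS 1 and 3. A peak was present in more BCAS libraries in 12 App regions, in fewer in 14 and in as many in 19.

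Mapt, which encodes tau, lies on chr11:104231390-104332090 (plus strand, 100.7 kb). Its covered length was 6817 ± 855 scaled bp in BCAS and 7070 ± 697 in sham (log2 fold change -0.05, 95% interval -0.26 to 0.15, adjusted p = 0.897). The promoter region was present in every library with 711 to 846 bp in BCAS and 755 to 784 bp in sham. Of 20 regions, 10 were present in all 8 libraries, 3 in more BCAS libraries and 4 in fewer. Kansl1, the gene downstream, had a log2 fold change of 0.09 (adjusted p = 0.784).

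Sorl1, a receptor that sorts the amyloid precursor protein away from the late endosome, lies on chr9:41964720-42124297 (minus strand, 159.6 kb). It had 7166 ± 586 scaled bp in BCAS and 8065 ± 967 in sham (log2 fold change -0.16, SE 0.09, 95% interval -0.36 to 0.03, adjusted p = 0.453). Introns held 85.2% of this length in BCAS and 81.8% in sham, and promoters 9.55% and 9.91%. Of 25 regions, 13 were present in all 8 libraries, the second highest number after App with 15. A region at 124.4 kb in intron 31 was present in BCAS 1, 2 and 3 with 336, 222 and 356 bp and in no sham library (adjusted p = 0.243), and regions at 56.1 kb and 157.9 kb were present in 2 sham libraries each and in no BCAS library.

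Bin1, a membrane-bending protein that occurs in neuronal and microglial isoforms, lies on chromosome 18 from 32377230 to 32435737 (plus strand, 58.5 kb) and had the densest coverage, 7.24% to 10.8% of its locus in single libraries. Its length was 5743 ± 318 scaled bp in BCAS and 5499 ± 493 in sham (log2 fold change 0.06, 95% interval -0.12 to 0.25, adjusted p = 0.858). A region of intron 1 at 12.8 kb, from 32389679 to 32390343, had 661, 569, 584 and 588 bp in BCAS 1 to 4, against 0, 200, 0 and 234 bp in sham 1 to 4. The region missed the threshold (log2 fold change 1.91, adjusted p = 0.0657). With sham libraries at 0 bp, this fold change depends on the 100 bp added before the log. The promoter region, which the lincRNA A830052D11Rik overlaps on the other strand, had 1011 to 1281 bp in BCAS and 1080 to 1507 bp in sham.

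Picalm, a clathrin assembly protein, lies on chr7:90130213-90213465 (plus strand, 83.3 kb). It had 2039 ± 272 scaled bp in BCAS and 1742 ± 203 in sham (log2 fold change 0.20, 95% interval -0.06 to 0.46, adjusted p = 0.493). Most of its length, 60.7% in BCAS and 61.9% in sham, lay at the promoter, where the region at the start site had 1095 to 1293 bp in BCAS and 795 to 1160 bp in sham. Over the whole locus BCAS 1 held 9 peaks, against 3 or 4 in the other BCAS libraries and 4 to 6 in sham.

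Cd2ap, an adaptor between endocytic membrane and actin, lies on chr17:42792951-42876665 (minus strand, 83.7 kb) and had the fewest regions, 5. Its length was 1501 ± 220 scaled bp in BCAS and 1500 ± 396 in sham (log2 fold change 0.02, 95% interval -0.30 to 0.34, adjusted p = 0.980). The promoter region had 755 to 931 bp in BCAS and 657 to 848 bp in sham, and the window as a whole did not pass the test (log2 fold change 0.23, adjusted p = 0.975). The interval of the locus is wide, so that smaller differences were not detectable.

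**Figure D4:**
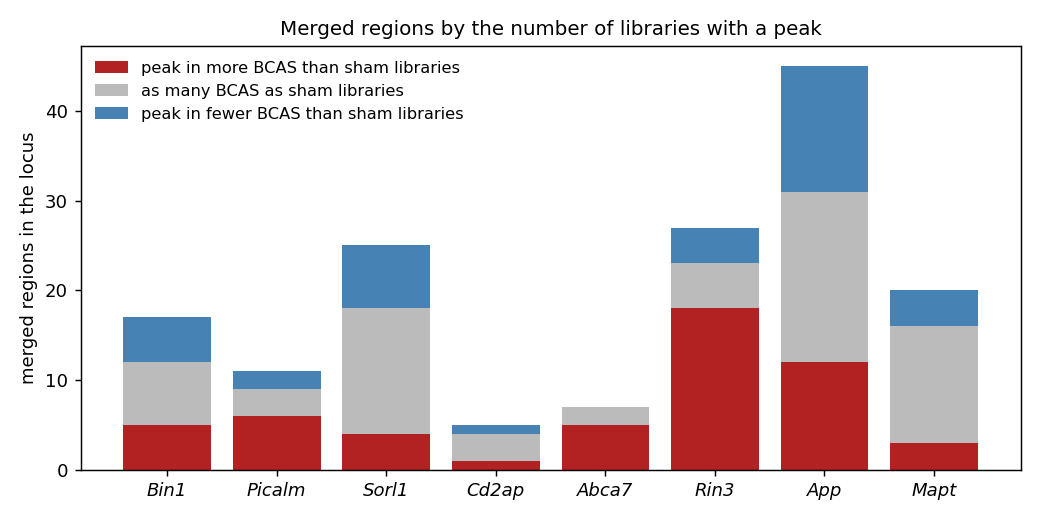
Number of merged regions in each locus (vertical axis, from 0), divided by whether a peak was present in more, as many or fewer BCAS than sham libraries. Rin3 has 18 of 27 regions with more BCAS libraries and 4 with fewer, whereas App has 12 and 14 of 45.

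Over all 8 loci, 54 of 157 regions had a peak in more BCAS libraries, 37 in fewer and 66 in as many. Among all regions of the genome, 30.4% had more BCAS libraries and 23.2% fewer. Peaks were present in all 8 libraries in 56 regions (35.7%), against 36.2% of all regions, and in a single library in 31. By position, 129 regions were intronic, 14 lay at promoters, 7 in a flank, 4 in UTR exons and 3 in coding exons. Of 103 regions with enough length to be tested, 5 were called, the BCAS-only ones, where 2.68% of 131435 regions rose. Each of the 5 is at 0 bp in all sham libraries and reached the minimum length only through BCAS, so that it had to differ, and the calls are a description of presence with no fold change given. The calls of all 5 were lost with no minimum of coverage (adjusted p = 0.0734 to 0.106) and with the replicate number as a block (0.121 to 0.131). The region of Rin3 at 9.7 kb also missed the threshold without sham 1 (0.0566) or sham 2 (0.0510) and with a pseudocount of 500 bp (0.05004). It was tested in 13 alternatives, against 18 for the Rin3 regions at 14.2 kb and 85.2 kb. In the rest it fell under the minimum length. With the block, 0 regions were called in the genome by limma (9819 higher and 5572 lower at an unadjusted p under 0.05).

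The counts of called genes in the wider pathways stand beside 3.15% higher and 0.376% lower over all tested loci, and with at most 1 gene called in a list they are no result about a pathway. Of 12 tested genes of the Rab5 and Ras interaction family, Rin3 alone rose and 0 fell (median log2 fold change 0.14). Of 17 genes of amyloid precursor cleavage and clearance, 1 rose and 0 fell (median -0.06), namely Lrp1, an endocytic receptor of apolipoprotein E (7544 ± 379 scaled bp in BCAS and 5195 ± 457 in sham, log2 fold change 0.52, adjusted p = 0.00241). Of 27 genes of clathrin endocytosis, 1 rose and 0 fell (median 0.05), namely Sh3kbp1, a paralogue of Cd2ap (0.43, SE 0.10, adjusted p = 0.0232). Of 14 tested A-subfamily ABC transporters, 1 rose and 0 fell (median 0.13), namely the cholesterol exporter Abca1 (0.70, SE 0.16, adjusted p = 0.0248). None of 18 genes of retromer and sorting or of 18 genes of tau and its kinases was called in limma (medians -0.02 and -0.07).

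Other genes near risk loci for late-onset disease were counted in the same way. Of 34 tested, 9 rose and 0 fell, beside the same 3.15% and 0.376% over all tested loci, with a median of 0.18 and 26 positive values. Of the list, 1 gene, Trem2, is also among the microglia markers. Trem2 and Abca1 are among the 9, so that they are counted here and also among the called microglia markers and ABC transporters. Among the 9 was Cd33, a sialic acid-binding inhibitory receptor of myeloid cells (1519 ± 228 scaled bp in BCAS and 595 ± 224 in sham, log2 fold change 1.15, adjusted p = 0.0023). Another 2 of the 9, Treml2 and Scimp, reached the minimum length only through BCAS. Treml2, a receptor of the TREM family, had 770 ± 109 in BCAS and 68.7 ± 137 in sham, and Scimp, an adaptor of antigen-presenting cells, had 559 ± 63.5 in BCAS and was listed at 0 bp in all 4 sham libraries. The list was drawn up from textbook knowledge with earlier results of these data known, and its medians are descriptions beside 0.00 over all tested loci.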

How the data were processed

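Peak lists of 4 BCAS and 4 sham ATAC-seq libraries were used. Per the submitters' notes and the methods, the authors used FastQC and Trim Galore on the reads, Bowtie2 2.3.4.3 for alignment (mm10), SAMtools 1.9 for sorting after duplicates were removed, and MACS2 to call peaks in each library, with options not given in the sources. The deposited columns are positions, an integer score, the fold enrichment of the summit (a ratio), -log10 p and -log10 q, and other values (the summit offset). The lowest deposited -log10 q was 1.31, and 861 peaks on other sequences were left out.

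Loci were built from the mouse GENCODE release M21 (basic) in Python 3.11.15 (pandas 2.3.3, numpy 2.4.6, matplotlib 3.10.9), and sequence was read from GRCm38. Covered length was scaled to the mean library total, increased by 200 bp (100 bp for regions) and log2 transformed. Features with a mean of at least 200 bp (100 bp for regions) entered limma 3.58.1 (R 4.3.3), with a trend of the variance and Benjamini-Hochberg adjustment over each of 4 fits, and were called at an adjusted p under 0.05. Fold changes understate changes of short features. The fits were tested on simulated data. P-values measure only the spread between these libraries.

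The members and lists were chosen with earlier results of these data known. Genes named were the 8 members, neighbours in their loci, the 3 loci most like a called member and up to 3 called genes of a list with the largest change. The 7 pathway lists and 10 marker lists came from textbook knowledge. Libraries were matched to the study's quality table, the source of read GC class, through their numbers of peaks. The locus lengths of same-numbered libraries did not deviate together (r = -0.16, -0.01, -0.10 and 0.14), and the numbers were not used as pairs in the main fits. This check cannot exclude that same-numbered libraries shared a step. Alternatives covered scaling, pseudocounts, minimum length, a -log10 q of 5, lists of equal length, covariates, flanks, promoters of 1 kb, merging at 100 bp, the replicate number as a block and leaving out libraries.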

Additional observations from a re-analysis of the deposited data

How the results depend on the processing

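Depth did not enter the fits because the lists hold no read counts, and a peak that missed the authors' threshold counts as 0 bp. The causes of the changes below were not tested. Single libraries left out gave 284 to 665 loci higher and 25 to 90 lower, 54 to 319 promoters higher and 1 to 9 lower, 102 to 330 introns higher and 6 to 38 lower, and 203 to 1273 regions lower, against 536, 64, 214, 6, 276, 31 and 316 with all libraries. Loci higher numbered 222 without scaling, 245 with read GC class as a covariate and 223 without BCAS 1 and sham 1 together, the last chosen after seeing the data, and loci lower 1, 8 and 22. Promoters higher numbered 77 with a pseudocount of 50 bp, 96 with the number of peaks as a covariate, 37 with read GC class and 44 without BCAS 1 and sham 1. Promoters lower numbered 1, 0, 11, 2, 1, 0 and 1 without scaling, with pseudocounts of 50 and 1000 bp, with the number of peaks, with read GC class, without BCAS 1 and sham 1 and with promoters of 1 kb. Introns higher numbered 92 without scaling, 92 with read GC class and 77 without BCAS 1 and sham 1, and introns lower 0, 2 and 13, with 82 for lists of equal length. Regions higher numbered 509 and lower 23 without a minimum, and regions lower 769 with lists of equal length and 2441 without BCAS 1 and sham 1. Sham-only regions in the loci numbered 1 with lists of equal length and 1 without BCAS 1 and sham 1, against 0. BCAS-only regions in the loci numbered 4 to 7 over all alternatives.

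The replicate number as a block, for which the labels give only a number, gave 777 loci higher and 160 lower, 388 promoters higher and 30 lower, 178 introns higher and 10 lower, and 0 regions higher and 0 lower. Under the block Abca7 passed (log2 fold change 0.50, adjusted p = 0.0481), Rin3 passed at the locus, and the 5 BCAS-only regions did not.

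Rin3 passed at the locus under every alternative run but the one without scaling, where it missed the threshold as given above. Sign changes touched only differences of genes that were not called. Mapt reversed at the locus without scaling (0.033) and without BCAS 1 and sham 1 (0.027), over -0.13 to 0.012 without single libraries, and in introns (0.019 and 0.013, over -0.15 to 0.030). App reversed at the locus without scaling (0.014), and at its promoter without scaling (0.044), with lists of equal length (0.021), with the number of peaks (0.045) and without BCAS 1 and sham 1 (0.091), over -0.098 to 0.060 without single libraries. Cd2ap reversed with read GC class at the locus (-0.22) and promoter (-0.043), over -0.073 to 0.17 at the locus without single libraries, and in introns without BCAS 1 and sham 1 (0.042). Bin1 reversed at the locus with read GC class (-0.0099), and at its promoter with a -log10 q of at least 5 (0.27) and without BCAS 1 and sham 1 (0.044). Sorl1 reversed in introns without BCAS 1 and sham 1 (0.012). The Mapt promoter gave -0.0003 to 0.15 without single libraries.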
